A study of Caenorhabditis elegans with 12 samples.

Results

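The neuropeptide-like protein (*nlp*) genes of *C. elegans* were followed in BAG neurons, the ciliated head neurons that respond to CO2. The class was chosen with earlier results of these data known, so its counts of calls are a description. Its members were taken by name, as every gene of the deposited table whose symbol is nlp- followed by a number. Added to these were *pdf-1*, *pdf-2*, *ntc-1* and *snet-1*. This gave 78 of the 46766 listed genes, with *pdf-2* listed as *nlp-37*. RNA was sequenced from 6 libraries of *arcp-1(db1082); npr-1(ad609)* animals (*arcp-1* mutants) and 6 libraries of *npr-1(ad609)* animals (controls), 12 in all. Both genotypes also carried the transgene *ynIs64[flp-17p::gfp]*. The *db1082* allele puts a premature stop codon into *arcp-1*, which encodes an ankyrin repeat protein, and *ad609* disrupts the neuropeptide receptor NPR-1 in both genotypes. Animals were day 1 adults kept at 20°C on *E. coli* OP50. BAG was marked by GFP under the *flp-17* promoter, and about 4000 fluorescent events per library were sorted, so the gene used for the sort, *flp-17*, is no finding here. Each genotype is 1 strain. Libraries were made by Smart-seq2, which amplifies full-length cDNA by PCR and does not tag single molecules, so copies of a molecule count as separate reads. In such bulk samples fewer cells of a type and less RNA per cell cannot be told apart.

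An *nlp* gene encodes a precursor protein that holds 1 or more short peptides. In dense core vesicles a proprotein convertase cuts the precursor after basic residues, a carboxypeptidase trims the ends and amidating enzymes finish many of the peptides, which then act mostly through G protein-coupled receptors. Unlike the *flp* genes, which share an RFamide ending, or the insulin-like genes, the *nlp* genes were grouped by exclusion, so they hold several unrelated families. Some are made by neurons, others by the intestine or the epidermis.

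Depth differed widely. The recovered reads ran from 374550 to 8683395 in *arcp-1* mutant libraries and from 540884 to 7594719 in controls, and 4 of the 12 libraries held fewer than 1000000 reads (*arcp-1* mutant replicates 3 and 4, control replicates 1 and 5). Normalized counts are reads divided by the authors' size factor for the library, so 1 read stood for as little as 0.294 and as much as 6.40 of them. The summed level of 11 BAG markers ran from 2411 to 8941 TPM (a unit that corrects for gene length and sums to 1000000 in each library) in *arcp-1* mutants (median 7438) and from 2423 to 6222 TPM in controls (median 5051), lowest in replicate 1 of each genotype. This sum includes *flp-19*, which averaged 2939 TPM in *arcp-1* mutants and 1233 TPM in controls. Without *flp-19* the sums ran from 1273 to 6390 TPM in *arcp-1* mutants and from 1263 to 5380 TPM in controls. Every BAG marker had reads in all libraries except *flp-10*, which had none in *arcp-1* mutant replicates 3 and 4. Body wall muscle transcripts were abundant as well, with 8 markers summing to between 5512 and 12921 TPM in *arcp-1* mutants and between 5553 and 14478 TPM in controls. The transcript of *arcp-1* itself, listed as F34D10.6, had between 704 and 4277 normalized counts in *arcp-1* mutants and between 3288 and 12360 in controls, and 5 of the 6 *arcp-1* mutant libraries lay below every control.

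Many *nlp* genes gave few reads in these libraries. Of the 78, 36 averaged under 10 TPM in both genotypes, and 26 had a read in all 12 libraries. A mean of at least 100 TPM was reached by 14 genes in *arcp-1* mutants and by 16 in controls. The comparison of the genotypes was fitted with limma on log2(normalized count + 1) for the 12096 genes with at least 1 count per 1000000 reads in 6 or more libraries, and 49 of the 78 passed this filter, which a gene could also pass through 1 genotype alone. The other 29 had at most 109 reads over the 12 libraries, and *nlp-39* had no row of normalized counts. Of the 49, 2 passed the adjusted p threshold of 0.05 (4.08%), against 1.66% of all genes tested. They were *nlp-58*, higher in *arcp-1* mutants, and *nlp-1*, lower. Of all genes tested, 1.33% were called higher in *arcp-1* mutants and 0.331% lower. The median log2 fold change of the 49 was -0.08, against -0.02 over all genes tested, and 46.9% of them against 47.8% of all genes had a positive value. At an unadjusted p under 0.05 there were 6 of the 49 (12.2%), against 10.4% of all genes. With edgeR and in the 8 libraries of at least 1000000 reads, the same genes of the class were called, where 1.64% and 0.909% of all genes were. DESeq2 called 4 of the class (3.47% of all genes) and limma with library weights 5 (4.0% of all genes). The genotypes did not overlap in 2 of the 49, and in 1.95% of all genes tested.

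**Figure D1:**
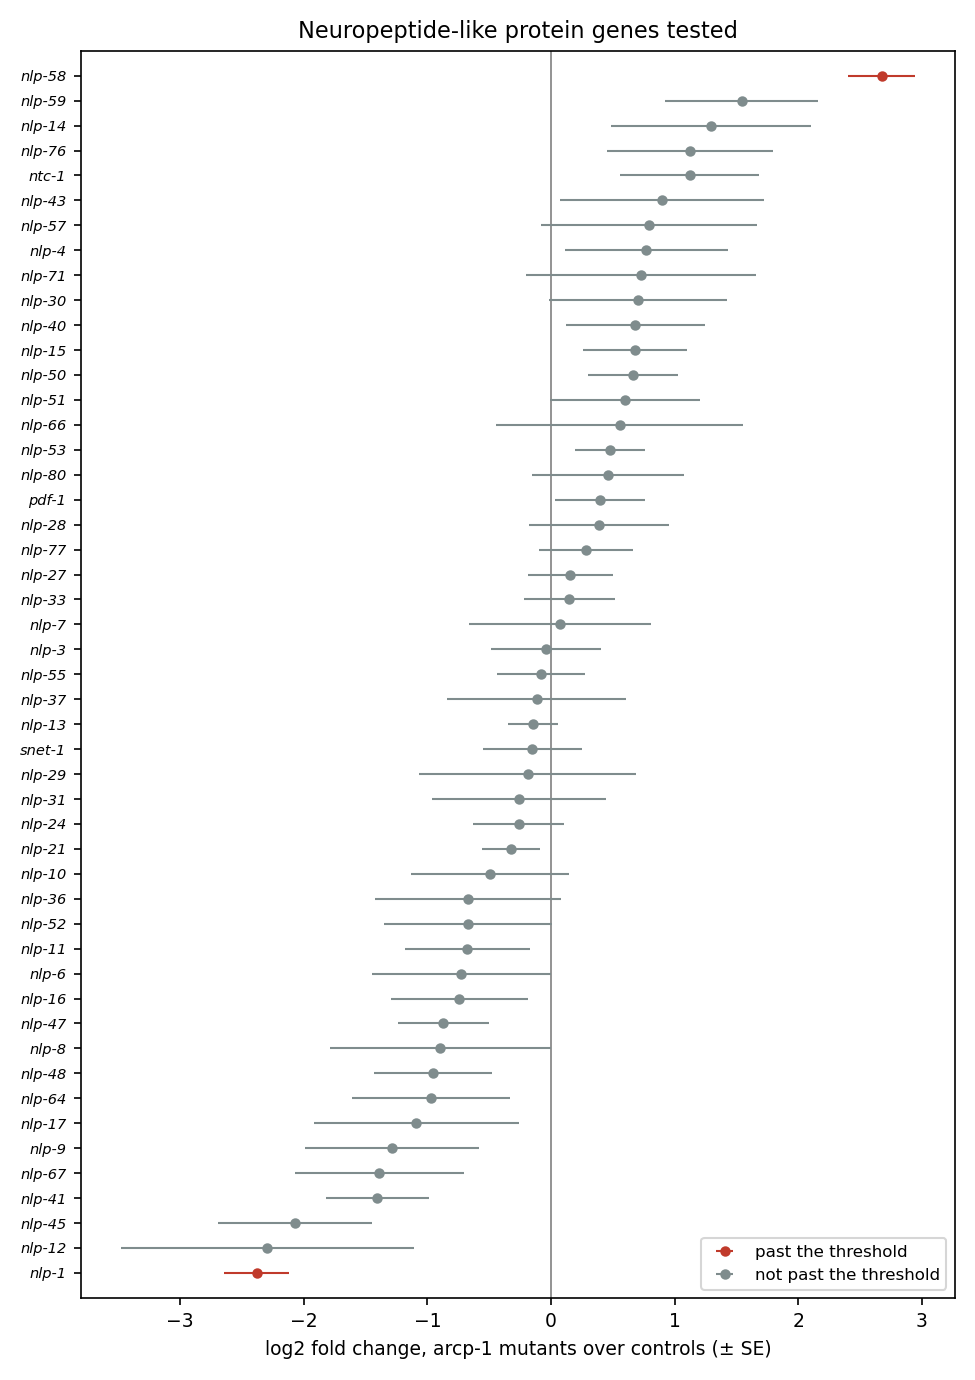
Log2 fold change (*arcp-1* mutants over controls) on the log2(normalized count + 1) scale with its standard error for the 49 *nlp*-class genes tested. Red points passed the adjusted p threshold (*nlp-58* at 2.67 and *nlp-1* at -2.38), and the 47 grey points, between -2.29 and 1.54, did not.

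*nlp-58* (WBGene00077775, chromosome V, 9946322 to 9948940, 3 annotated exon blocks, no overlapping exons) had a median of 2330 normalized counts in *arcp-1* mutants, with a range of 935 to 3055, against a median of 348 and a range of 202 to 423 in controls. All 6 *arcp-1* mutant libraries lay above the highest control, and the lowest of them, replicate 1, was also the one with the fewest BAG marker transcripts. The log2 fold change was 2.67 (SE 0.27, limma, Benjamini-Hochberg adjusted p = 3.06e-05, two-sided exact permutation p = 0.00216, the smallest that 924 assignments can give), or 6.38-fold. Per length, its mean was 2379 ± 774 TPM in *arcp-1* mutants and 371 ± 110 TPM in controls (SD, n = 6 each). It therefore ranked 48 among all listed genes in *arcp-1* mutants and 292 in controls.

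*nlp-1* (WBGene00003739, chromosome X, 3727553 to 3728446, no overlapping exons) encodes buccalin-like peptides that the olfactory neuron AWC releases onto the receptor NPR-11. It moved the other way. Its median was 307 normalized counts in *arcp-1* mutants, with a range of 143 to 594, against a median of 1695 and a range of 1188 to 1996 in controls. Again the genotypes did not overlap, with the highest *arcp-1* mutant library, replicate 2, below the lowest control, replicate 1. The log2 fold change was -2.38 (SE 0.27, limma, Benjamini-Hochberg adjusted p = 8.25e-05, exact permutation p = 0.00216), or 5.21-fold lower. The mean level was 277 ± 127 TPM in *arcp-1* mutants and 1385 ± 360 TPM in controls (SD, n = 6 each), ranks 422 and 79 among all listed genes. The 10 markers of AFD, ASE and AWC neurons summed to between 14.5 and 42.4 TPM in *arcp-1* mutants and between 8.25 and 33.4 TPM in controls. The intestine markers had negative log2 fold changes in 8 of 8 genes tested (median -0.62), with sums between 138 and 480 TPM in *arcp-1* mutants and between 325 and 633 TPM in controls. The URX, AQR and PQR markers had negative values in 5 of 5 genes tested (median -1.002), with sums between 23.6 and 285 TPM in *arcp-1* mutants and between 98.0 and 3173 TPM in controls. Negative values were also found in 7 of 8 germline, 7 of 9 motor neuron and interneuron, 6 of 8 body wall muscle and 3 of 5 other chemosensory genes tested. Positive values were found in 5 of 5 glia genes, 3 of 4 AFD, ASE and AWC genes, 4 of 8 hypodermis genes and 2 of 4 pharynx genes tested. No gene of these lists was called, and their part in the differences of *nlp-1* and *nlp-58* was not tested.

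**Figure D2:**
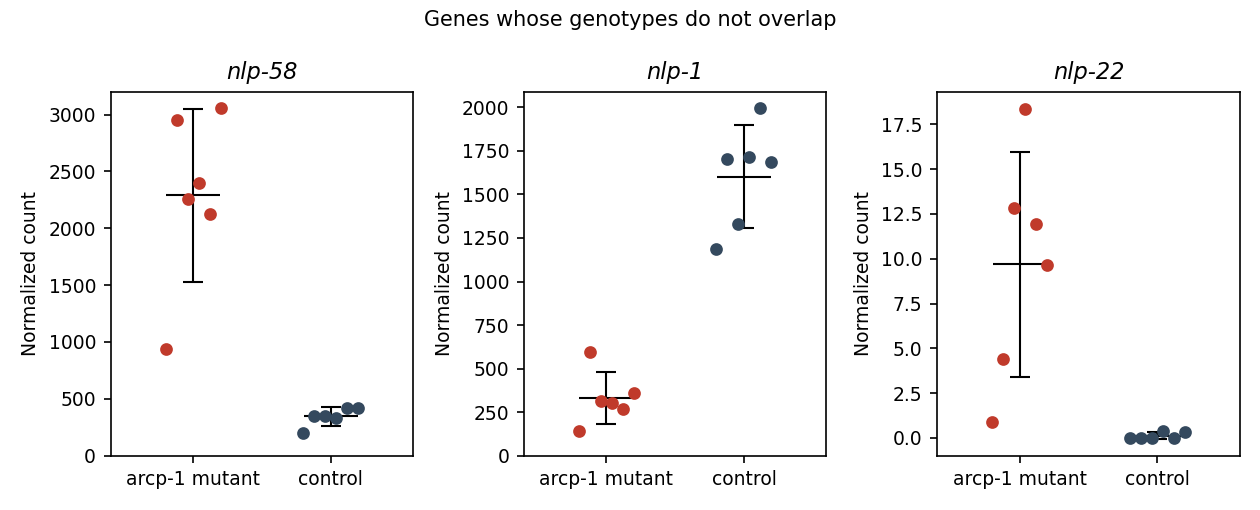
Normalized counts per library of *nlp-58*, *nlp-1* and *nlp-22* in 6 *arcp-1* mutant and 6 control libraries, with horizontal bars for the mean and error bars for the SD. In each gene the genotypes do not overlap. *nlp-58* and *nlp-22* lie higher in *arcp-1* mutants and *nlp-1* lower, and the *nlp-22* axis runs only to about 18 normalized counts.

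The summed level of the class overlapped between the genotypes, between 5533 and 8966 TPM in *arcp-1* mutants (median 7815) and between 5880 and 7655 TPM in controls (median 6589.5). In *arcp-1* mutant replicates 2, 3 and 6 (8966, 8192 and 8116 TPM) it lay above the highest control. The make-up of the class differed. *nlp-58* held between 17.5% and 37.5% of the summed TPM in *arcp-1* mutants and between 2.81% and 7.51% in controls, while *nlp-1* held between 2.16% and 5.64% in *arcp-1* mutants and between 13.3% and 29.1% in controls. Without these genes the sums ran from 3894 to 5606 TPM in *arcp-1* mutants and from 3996 to 5767 TPM in controls. Among the genes of the class, *nlp-58* ranked 1 by mean TPM in *arcp-1* mutants and 7 in controls, and *nlp-1* ranked 6 in *arcp-1* mutants and 1 in controls.

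**Figure D3:**
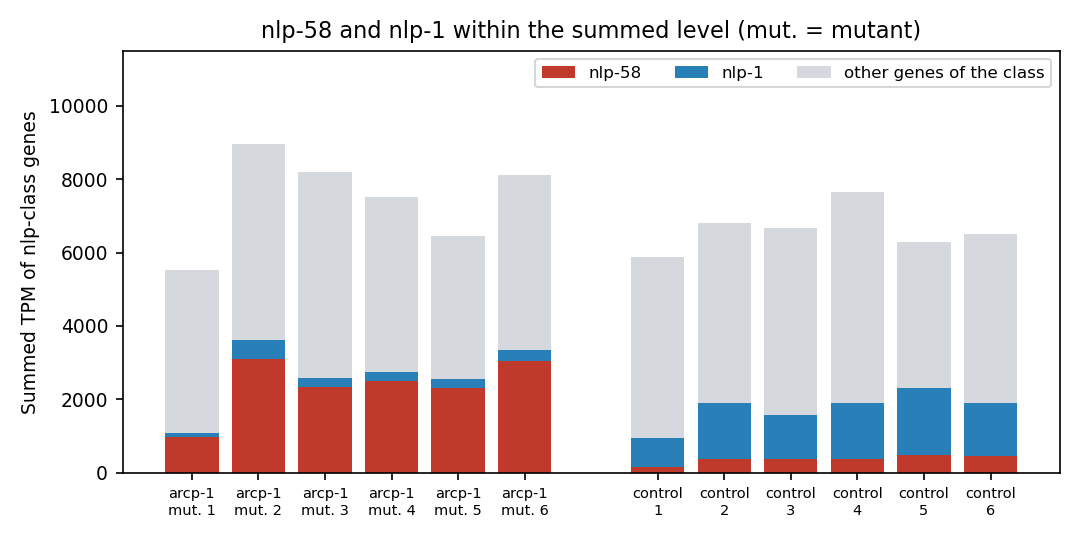
Summed TPM of the 78 *nlp*-class genes in each library, divided into *nlp-58* (red), *nlp-1* (blue) and all others (grey). The red part is the larger coloured part in all 6 *arcp-1* mutant libraries and the blue part in all 6 control libraries, while the grey part stays between 3894 and 5767 TPM throughout.

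The reads of *nlp-58* divided by those of *nlp-1* in the same library do not depend on the size factor. This ratio ran from 4.97 to 8.51 in *arcp-1* mutants and from 0.170 to 0.262 in controls, so the order of both transcripts was reversed in every library of a genotype, deep or shallow. Each gene had already separated the genotypes, in opposite directions. Separation of their ratio was therefore fixed in advance and adds no support. Set against the summed BAG markers other than *flp-19*, which itself averaged 2939 TPM in *arcp-1* mutants and 1233 TPM in controls, the level of *nlp-58* was between 0.363 and 0.992 of the markers in *arcp-1* mutants and between 0.0880 and 0.139 in controls. For *nlp-1* the same quotient was between 0.0365 and 0.161 in *arcp-1* mutants and between 0.306 and 0.619 in controls. Neither quotient overlapped between the genotypes. Both genes passed the threshold in all 23 alternative fits, where the adjusted p reached at most 0.0101 for *nlp-58* and 0.0147 for *nlp-1*.

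The other abundant genes of the class overlapped between the genotypes. *nlp-77*, listed as *srlf-1* in the Ensembl annotation, ranked 2 in both, with a median of 854 TPM (334 to 1343) in *arcp-1* mutants and 647 TPM (325 to 1172) in controls. *nlp-50* ranked 3 in both, with a median of 747 TPM (392.1 to 1216) in *arcp-1* mutants and 502 TPM (196 to 1180) in controls. Their log2 fold changes were 0.29 (SE 0.38) and 0.66 (SE 0.36), and neither passed the threshold. *nlp-55* averaged 175 TPM in *arcp-1* mutants and 184 TPM in controls, and *nlp-53* averaged 155 TPM in *arcp-1* mutants and 113 TPM in controls, and these did not pass it either. *nlp-53* lies outside the naming rule and was chosen after its values were seen, as the only gene outside the rule with a mean of at least 100 TPM in both genotypes. For all of these the ranges overlapped, and a p above the threshold does not show that levels were alike. The standard errors of the 47 genes not called ran from 0.20 to 1.19.

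**Figure D4:**
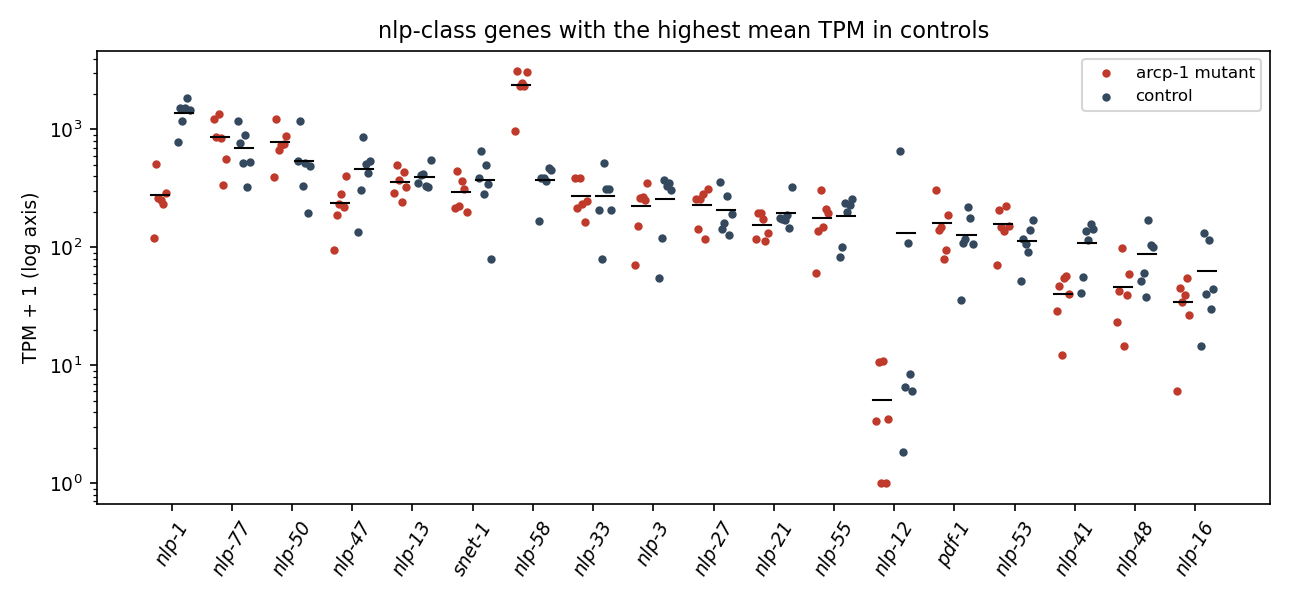
TPM + 1 (log axis) per library for the 18 *nlp*-class genes with the highest mean TPM in controls, in that order from left to right, with black bars for the mean. Points of *arcp-1* mutants (red) and controls (dark blue) separate for *nlp-1* and *nlp-58*, overlap for the others, and *nlp-12* owes its place to a control library at 654 TPM.

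Among the buccalin-like genes, all 3 were tested and *nlp-1* was the only one called. *nlp-13* was abundant and the most evenly expressed gene of the class, with a median of 349 TPM (242 to 497) in *arcp-1* mutants and 379 TPM (324 to 546) in controls. Its log2 fold change of -0.15 had the smallest standard error of the 49 (0.20). *nlp-7* averaged 7.08 TPM in *arcp-1* mutants and 7.21 TPM in controls.

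The RPamide family holds *nlp-2*, *nlp-22*, *nlp-23* and *nlp-46*, whose products are known for roles in larval sleep and waking. None of the 4 passed the filter on low counts. *nlp-22*, which in larvae promotes the quiescence of lethargus, was the third gene of the class whose genotypes did not overlap. It had 3, 6, 2, 3, 21 and 24 reads in *arcp-1* mutant replicates 1 to 6 and 0, 0, 0, 1, 0 and 1 read in control replicates 1 to 6. Every *arcp-1* mutant library, including the shallowest, held reads of it, and 4 of the 6 controls held none. The 59 reads of the *arcp-1* mutants against the 2 of the controls gave a 31.9-fold ratio per sequenced read (95% exact interval 8.46 to 270), which covers counting error only. Without the filter the log2 fold change was 2.94 (limma, Benjamini-Hochberg adjusted p = 0.0503, exact permutation p = 0.00216), just short of the threshold. In that fit 0.688% of 22542 genes were called, and 1.11% of these genes did not overlap between the genotypes. *nlp-22* (X, 2341359 to 2342089) lies next to *nlp-23* (2342458 to 2342967) and *nlp-2* (2343947 to 2344766), with *nlp-45* (2337656 to 2338306) on the other side. Its neighbours did not share its pattern. *nlp-2* averaged 2.99 TPM in *arcp-1* mutants and 6.13 TPM in controls, *nlp-23* 1.46 TPM in *arcp-1* mutants and 1.70 TPM in controls, and *nlp-45* 2.02 TPM in *arcp-1* mutants and 8.97 TPM in controls.

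All 4 orcokinin-like genes were tested and none was called. *nlp-3*, a serotonin co-transmitter of the egg-laying neurons HSN, was the most abundant of them, with a median of 256 TPM (70.0 to 351) in *arcp-1* mutants and 315 TPM (53.6 to 373) in controls. *nlp-15* averaged 59.3 TPM in *arcp-1* mutants and 41.7 TPM in controls. *nlp-14* averaged 22.99 TPM in *arcp-1* mutants and 11.5 TPM in controls, and *nlp-8* 3.35 TPM in *arcp-1* mutants and 8.14 TPM in controls. Both GGARAF genes were tested and neither was called. *nlp-21* had a median of 151 TPM (112 to 195) in *arcp-1* mutants and 174 TPM (145 to 326) in controls, but its exons overlap those of *subs-4* on the opposite strand, and counting did not use strand. *nlp-9* averaged 2.36 TPM in *arcp-1* mutants and 6.88 TPM in controls.

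The 11 epidermal genes encode YGGW-amide and related peptides, several of which are antimicrobial and induced by fungal infection or wounding. Of the 7 tested none was called, and their median log2 fold change was 0.15. *nlp-33* had a median of 240 TPM (164 to 386) in *arcp-1* mutants and 259 TPM (78.9 to 520) in controls. *nlp-27* had a median of 256 TPM (116 to 310) in *arcp-1* mutants and 176 TPM (126 to 356) in controls. *nlp-29*, the usual reporter of the epidermal immune response, averaged 33.03 ± 22.8 TPM in *arcp-1* mutants and 35.3 ± 26.97 TPM in controls (SD, n = 6 each). The hypodermis markers summed to between 2171 and 5878 TPM in *arcp-1* mutants and between 1644 and 3874 TPM in controls, so transcripts of this tissue were in all libraries. Their part in the level of the epidermal genes was not tested. *nlp-34*, which lies in the same cluster on chromosome V as *nlp-27* to *nlp-31*, was below the filter, at 1.61 to 6.62 normalized counts in *arcp-1* mutants and 0 to 2.82 in controls. In *arcp-1* mutant replicates 3 and 4 a single read was worth 6.40 and 6.13 normalized counts. *nlp-25*, also below the filter, lay the other way, at 0 to 2.35 normalized counts in *arcp-1* mutants and 0 to 10.5 in controls.

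Of the families shared with other animals, 6 genes were tested and none was called. *pdf-1*, a pigment dispersing factor that promotes roaming, had a median of 143 TPM (78.4 to 305) in *arcp-1* mutants and 112 TPM (34.7 to 218) in controls. Its partner *pdf-2* (*nlp-37*) was scarce, at 4.52 TPM in *arcp-1* mutants and 4.56 TPM in controls on average. *snet-1*, which slows olfactory adaptation and is opposed by the peptidase NEP-2, had a median of 268 TPM (197 to 440) in *arcp-1* mutants and 364 TPM (78.9 to 659) in controls. *ntc-1*, the nematode relative of vasopressin and oxytocin, had a median of 65.4 TPM (23.7 to 143) in *arcp-1* mutants and 28.8 TPM (6.17 to 59.6) in controls. Its log2 fold change of 1.12 (SE 0.56, limma, Benjamini-Hochberg adjusted p = 0.525) did not pass, and its exons overlap those of *tsp-14* on the opposite strand. *nlp-47*, which resembles the gonadotropin-releasing and adipokinetic hormones, had a median of 227 TPM (94.2 to 399) in *arcp-1* mutants and 470 TPM (134 to 866) in controls, with a log2 fold change of -0.87 (SE 0.36, adjusted p = 0.389 from the same test).

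The genes closest to the threshold without passing it were mostly scarce. *nlp-41* had between 6.40 and 30.6 normalized counts in *arcp-1* mutants, with a median of 24.4, and between 28.9 and 80.7 in controls, with a median of 66.9. All 6 *arcp-1* mutant libraries lay below the control median, and the ranges overlapped only where the highest *arcp-1* mutants met the lowest controls. The log2 fold change was -1.40 (SE 0.42, limma, Benjamini-Hochberg adjusted p = 0.137), and exons of *nlp-41* overlap those of *mog-4* on the opposite strand. *nlp-45* had between 0 and 6.13 normalized counts in *arcp-1* mutants and between 4.25 and 13.2 in controls (log2 fold change -2.07, SE 0.62, adjusted p = 0.143 from the same test). *nlp-59* had between 6.18 and 18.4 normalized counts in *arcp-1* mutants and between 0 and 10.8 in controls (log2 fold change 1.54, SE 0.62, adjusted p = 0.355 from the same test). In both genes the genotypes overlapped. *nlp-67* and *nlp-48* had log2 fold changes of -1.39 (SE 0.68) and -0.95 (SE 0.48). *nlp-38*, below the filter, had 8 reads in all *arcp-1* mutants and 43 in all controls, a ratio of 4.96 in favour of the controls (95% exact interval 2.31 to 12.2, counting error only), but 2 libraries of each genotype held none. Its mean normalized count was 1.46 in *arcp-1* mutants and 2.68 in controls, with the highest of all 12 libraries an *arcp-1* mutant at 6.13. In the fit without the filter its log2 fold change was -0.49 (limma, Benjamini-Hochberg adjusted p = 0.82, exact permutation p = 0.522).

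Several genes had their highest level in a single library. *nlp-12*, a cholecystokinin-like gene of the neuron DVA, had 516 normalized counts in control replicate 1, against 0.479 to 63.2 in the other controls and 0 to 6.13 in *arcp-1* mutants. Its log2 fold change of -2.29 had the largest standard error of the 49 (1.19) and moved to -1.23 without that library. The same library held the highest control values of *nlp-6*, *nlp-7*, *nlp-8* and *nlp-11*, and its pharynx markers summed to 2493 TPM and its URX, AQR and PQR markers to 3173 TPM, the highest of all 12 libraries. Their part in these values was not tested. *nlp-40*, which the intestine releases to time defecation, had 421 normalized counts in *arcp-1* mutant replicate 1 and between 26.2 and 36.8 in the others, against 17.98 to 44.1 in controls. The intestine markers of that library summed to 344 TPM, within the 138 to 480 TPM of the *arcp-1* mutants. Only 1 of them, *act-5*, an intestinal actin, was highest there, at 329 normalized counts against 31.9 to 75.0 in the other *arcp-1* mutants. Another, *cpr-1*, had 22.4 normalized counts there, its lowest value among the *arcp-1* mutants. The library also had the highest sums of all 12 for the hypodermis (5878 TPM), germline (1109 TPM) and glia (216 TPM) markers. Their part in the level of *nlp-40* was not tested. *nlp-6*, *nlp-7*, *nlp-8*, *nlp-11* and *nlp-40* were named after their values were seen.

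**Figure D5:**
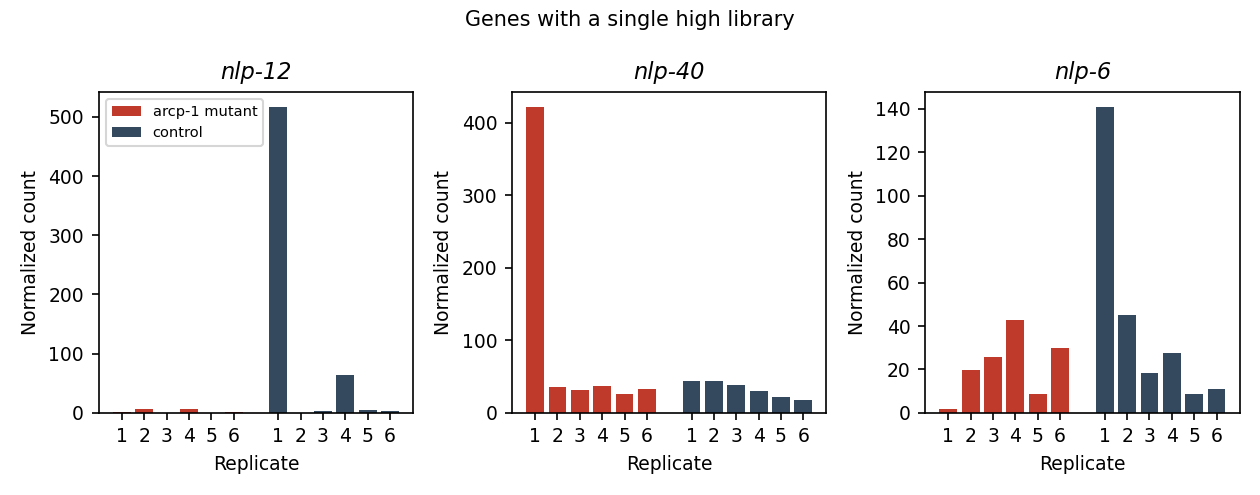
Normalized counts of *nlp-12*, *nlp-40* and *nlp-6* in replicates 1 to 6 of *arcp-1* mutants (red) and controls (dark blue). *nlp-12* and *nlp-6* peak in control replicate 1 (516 and 141 normalized counts) and *nlp-40* in *arcp-1* mutant replicate 1 (421).

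Part of the machinery that makes and releases the peptides was strongly expressed in both genotypes. Other genes of it were scarce, such as *vps-50* at 9.07 TPM in *arcp-1* mutants and 11.1 TPM in controls on average. Of the 21 processing and dense core vesicle genes listed, 20 were matched and tested. The genes with the highest mean TPM over both genotypes were *pghm-1* (amidation) at 17794 ± 5457 TPM in *arcp-1* mutants and 24517 ± 7140 TPM in controls, *egl-21* (carboxypeptidase E) at 19821 ± 6805 TPM in *arcp-1* mutants and 20749 ± 5843 TPM in controls, and *sbt-1* (7B2, the chaperone of the convertase EGL-3) at 18713 ± 5946 TPM in *arcp-1* mutants and 20766 ± 5566 TPM in controls (SD, n = 6 each). The amidating enzyme *pgal-1* followed, at 17072 ± 5940 TPM in *arcp-1* mutants and 21950 ± 6030 TPM in controls, where it stood above *sbt-1* and *egl-21*. None of these was called. Of the 20 genes tested 1 was called, against 1.66% of all genes tested. It was *nep-2*, a neprilysin-like peptidase known to limit SNET-1. It had between 51.2 and 146 normalized counts in *arcp-1* mutants and between 4.07 and 12.7 in controls. The genotypes did not overlap, and the log2 fold change was 3.01 (SE 0.37, limma, Benjamini-Hochberg adjusted p = 0.00018). Annotated exons of *nep-2* overlap those of T05A8.3 and T05A8.11 on the same strand, so some reads cannot be assigned to it alone. *nep-2* was higher in *arcp-1* mutants, while *snet-1* was not called.

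Of 18 receptors reported for peptides of these classes, 8 passed the filter. Of these 8, 1 was called, against 1.66% of all genes tested. *ntr-2*, a nematocin receptor, had a median of 22.4 normalized counts (5.00 to 30.6) in *arcp-1* mutants and 1.48 (0 to 3.83) in controls. The genotypes did not overlap, and the log2 fold change was 3.05 (SE 0.60, limma, Benjamini-Hochberg adjusted p = 0.0128). It was no longer past the threshold with a pseudocount of 0.1 or in the 8 libraries of at least 1000000 reads. *gnrr-6*, a receptor reported for RPamide peptides, averaged 6.99 TPM in *arcp-1* mutants and 19.2 TPM in controls, with a log2 fold change of -1.57 (SE 0.47, adjusted p = 0.144 from the same test). The PDF receptor *pdfr-1* averaged 19.1 TPM in *arcp-1* mutants and 19.7 TPM in controls, and *aex-2*, the receptor of NLP-40, 53.5 TPM in *arcp-1* mutants and 60.8 TPM in controls. *npr-11*, the receptor of NLP-1, was below the filter, at 0.635 normalized counts in *arcp-1* mutants and 0.622 in controls on average, and so was *gnrr-1*, the receptor of NLP-47, at 0.190 in *arcp-1* mutants and 0.459 in controls.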

How the data were processed

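Per the paper, the authors discarded ribosomal reads (Bowtie2), trimmed adapters (Trim Galore), aligned to WS255 with STAR, kept alignments with a quality of 20 or more, and ran HTSeq in unstranded mode. The deposited normalized counts are a signal made by the authors by dividing each library's reads by a DESeq2 size factor, and 100% of values came out as whole reads (within 0.001). The deposited TPM was computed by the authors over 46766 genes. The authors' comparison table holds group means, log2 fold changes, Wald statistics, p-values and q-values, of which none were used; only its symbols and loci were read.

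Here log2(normalized count + 1) of 12 libraries was fitted with limma 3.58.1 in R 4.3.3 (eBayes with trend), without covariates, for 12096 genes. Alternatives were pseudocounts of 0.1 and 10, no filter, TPM, quantile normalization, library weights, edgeR 4.0.16 and DESeq2 1.42.0 on recovered reads, a block for replicate number, and omission of single libraries. The main limma fit, edgeR and DESeq2 were first run on simulated counts in which 200 genes were changed. The other alternatives were not simulated. Replicates differed by at least 4.17 in chi-square per gene, so none is a copy. The members and lists were chosen with earlier results of these data known. Named were genes called, genes without overlap, the 12 highest by TPM in either genotype, the 8 smallest p not called, genes that had 3 reads or fewer in each library of 1 genotype and more than 10 in at least 3 of the other, *pdf-1*, *pdf-2*, *ntc-1*, *snet-1* and list examples. *rab-2*, *nlp-44* and *nlp-54* were unmatched. Of the 78 loci, 17 equal those of the Ensembl annotation used for exon overlaps, which gave 14 genes with overlapping exons and a different symbol for 6.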

Additional observations from a re-analysis of the deposited data

Results flagged for a closer look

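In the 102 groups of 6 libraries (51 genes of the class, normalized counts), 14 held a library whose gap to its nearest neighbour was above Dixon's 95% critical value as a share of the range. For normally distributed values about 1 in 20 groups would be flagged, or 5.10 of these. Normalized counts are bounded at 0 and move in steps of whole reads, so the 14 flags cannot be read as an excess over chance. In *arcp-1* mutants the high libraries were replicate 1 for *nlp-40* (421, others 26.2 to 36.8), replicate 3 for *nlp-15* (154, others 42.4 to 71.7) and *nlp-17* (44.8, others 0 to 5.29), replicate 4 for *nlp-36* (67.4, others 0 to 14.5) and *nlp-38* (6.13, others 0 to 1.21), and replicate 6 for *nlp-43* (69.3, others 14.7 to 32). In controls, replicate 1 was high for *nlp-12* (516, others 0.479 to 63.2), *nlp-6* (141, others 8.49 to 45.0), *nlp-8* (46.9, others 0 to 10.97), *nlp-11* (28.9, others 8.49 to 15.9) and *nlp-7* (21.7, others 0 to 6.44). Replicate 3 was high for *nlp-36* (32.6, others 11.7 to 18.2) and *nlp-17* (13.3, others 3.61 to 7.19), and replicate 5 for *nlp-9* (25.5, others 3.05 to 5.67). None of these genes was called in the main fit. In *arcp-1* mutant replicates 3 and 4 and control replicates 1 and 5 a read was worth between 3.61 and 6.40 normalized counts, so the value of 6.13 is a single read. These genes were named after their values were seen, apart from *nlp-12* and *nlp-38*.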

How the results depend on the processing

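The calls of *nlp-58* and *nlp-1* held in all 23 alternatives, with log2 fold changes of 2.51 to 2.91 and -2.58 to -2.15. The number of *nlp*-class genes called was 4 with DESeq2 (adding *nlp-12* and *nlp-41*), 5 with library weights (adding *nlp-41*, *nlp-45* and *nlp-59*), 2 to 2 when each library was left out, and 2 in the other alternatives but the block. With the replicate number as a block it was 3 (adding *nlp-47*), and 291 genes in all were called. The DESeq2 call of *nlp-12* (log2 fold change -5.34) came with 516 normalized counts in control replicate 1, against 0.479 to 63.2 in the other controls. Correlations of same-numbered libraries ran from 0.04 to 0.32, and those of differently numbered libraries from -0.24 to 0.21. Not every library correlated best with its own number, and the numbers were not taken as pairs. These values do not settle whether the libraries were paired. Receptor calls were 0 with a pseudocount of 0.1, 0 in the 8 deeper libraries and 1 to 1 when each library was left out, and the processing list gave 1 to 1. Over all genes, 201 calls became 404 with DESeq2, 484 with library weights, 110 in the 8 deeper libraries, 371 without replicate 1 of each genotype (lowest BAG markers), and 124 to 329 when each library was left out (*arcp-1* mutant replicate 6, *arcp-1* mutant replicate 1). The cause of these shifts was not tested. The comparisons on the deeper libraries and without replicate 1 were chosen after seeing the data. Small fold changes of *pdf-1*, *snet-1*, *nlp-3*, *nlp-33*, *nlp-37* and *nlp-55* changed sign in some alternatives without being called.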
